A study of Mus musculus with 2 samples.

Results

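Endothelial cells line the inside of the blood vessels, and the nuclei described here are the endothelial nuclei of the hippocampus in a mouse model of tauopathy. They were chosen by the summed unique molecular identifiers (UMIs) of 6 endothelial genes, *Flt1*, *Ptprb*, *Adgrl4*, *Slco1a4*, *Pecam1* and *Cldn5*, which had to reach 15 per 10000 UMIs of a nucleus. Nuclei rich in markers of mural cells (*Abcc9*, *Atp13a5*, *Notch3* and *Pdgfrb*, at least 10 per 10000), oligodendrocytes (*St18* and *Prr5l*, at least 10 per 10000) or microglia (*Inpp5d* and *Csf1r*, at least 5 per 10000) were left out. The rule gave 652 endothelial nuclei among the 20594 nuclei that passed the thresholds for quality (no fewer than 600 UMIs and 300 genes, and a mitochondrial share of up to 5%).

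Single-nucleus RNA sequencing was carried out on the hippocampus of PS19 mice, which carry a mutant human tau transgene driven by the mouse prion promoter, and of PZKO mice, which carry the same transgene and lack *Zbp1*, the gene of a sensor of Z-form nucleic acids that feeds inflammatory and cell death signalling. Both groups were males aged 9 months, and the study compared littermates. Each genotype is represented by 1 library which the sample titles and methods describe as the pooled hippocampi of 5 animals, whereas the dissociation protocol speaks of tissue handled animal by animal. No nucleus can be assigned to an animal, and genotype and library cannot be told apart. Mice without the tau transgene were not analysed here. With 1 library per genotype no difference has a replicate check, no test between genotypes was made, and the 95% intervals given below (exact Poisson, exact binomial, or exact conditional binomial for a log2 ratio) cover counting error only.

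Brain endothelial cells form the blood-brain barrier. Their tight junctions close the path between cells, efflux pumps return foreign molecules to the blood, solute carriers bring in glucose, amino acids and hormones, and transport by vesicles is kept low by Wnt and beta-catenin signals from the surrounding tissue. Expression is graded along the vessel from artery through capillary to vein, where leukocytes adhere and much of the response to inflammatory signals takes place, and endothelial cells respond strongly to interferons.

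Endothelial nuclei were found at similar shares in both libraries, 319 of 10466 nuclei in PS19 (3.05%, interval 2.73 to 3.40) and 333 of 10128 nuclei in PZKO (3.29%, interval 2.95 to 3.65). The files held 116488513 UMIs in 11469 nuclei for PS19 and 171167884 UMIs in 10920 nuclei for PZKO, and the median nucleus that passed the filters had 6208 UMIs in PS19 and 9634 in PZKO. Endothelial nuclei differed less in depth between the libraries. Their median was 2552 UMIs in PS19 (range 607 to 22182) and 2782 in PZKO (range 613 to 48508), with 1480 and 1574 genes per median nucleus. Together they held 1206532 UMIs in PS19 and 1685738 in PZKO, and all levels below are UMIs summed over nuclei, scaled to the total of the same nuclei (counts scaled to a fixed total, CPM). Of the barcodes, 47 occurred in both libraries, and 3 of these were endothelial in one of them and none in both.

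The rule genes themselves, which chose the nuclei and are given only as a description, were far above the other nuclei of the same library. *Flt1*, a receptor for vascular endothelial growth factor (VEGF), stood at 3017 CPM in PS19 and 3232 CPM in PZKO, which was 159 and 175 times its level in the other nuclei, and at least 1 UMI was seen in 94.7% and 93.4% of endothelial nuclei. *Slco1a4*, an organic anion transporter of the barrier, stood at 3808 and 3152 CPM. The median sum of the 6 genes was 132 per 10000 UMIs in PS19 and 124 in PZKO, against 0 in the other nuclei, 84.9% and 82.5% of which had no UMI of any of the 6 genes. Few nuclei lay close to the threshold: 33 PS19 and 32 PZKO nuclei had sums between 15 and 30 per 10000, and these were deeper than the typical endothelial nucleus (median 8237 and 6059 UMIs). The members just inside the threshold had sums of 15.1 to 16.2, and the nuclei just outside it 13.3 to 14.7.

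Beyond the rule, 845 of 8824 genes with at least 50 endothelial UMIs (9.58%) were at least 4 times as high in endothelial as in other nuclei in both libraries. This count follows from the choice of nuclei and describes them. Among the 20 most selective were *Sox17* and *Tie1*, a transcription factor and a receptor of the angiopoietin system, the von Willebrand factor gene *Vwf*, *Robo4*, a receptor that stabilizes vessels, the drug efflux pump gene *Abcb1a*, and *Zfp366*, *Fendrr*, *Myct1* and *She*. *Abcb1a* stood at 888.5 CPM in PS19 and 927 CPM in PZKO, 164 and 192 times its level in the other nuclei.

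*Zbp1* (mm10 chr2:173206612-173218923, minus strand) could not check the genotype labels in these nuclei. It had 6 UMIs in 4 PS19 nuclei and 5 UMIs in 5 PZKO nuclei, a log2 ratio of PZKO over PS19 of -0.75 with an interval from -2.80 to 1.23. In all other nuclei together it had 103 UMIs in PS19 (0.920 CPM) and 45 in PZKO (0.268 CPM), with the log2 ratio at -1.78 (interval -2.32 to -1.26). A count made from the 3′ end does not show which exons a transcript holds. The genes of its partner kinase and of the pore-forming effector of necroptosis, *Ripk3* and *Mlkl*, were also sparse in endothelial nuclei, with 1 and 11 UMIs in PS19 and 2 and 22 UMIs in PZKO.

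The nuclei fell into 9 clusters, which were set against lists of vessel segment markers and of markers of other cell types. Cluster 1 (93 PS19 and 84 PZKO nuclei) and cluster 6 (26 and 28 nuclei) were capillary-like, cluster 2 (59 and 60) venous-like, cluster 3 (41 and 53) arterial-like, and cluster 9 (7 and 7) fenestrated-like, with *Plvap*, the protein of the diaphragms of leaky vessels, among its leading genes. Cluster 6 differed from cluster 1 in depth, with a median of 7000.5 against 1832 UMIs, in its mitochondrial share, with a median of 2.22% against 0.927%, and in its leading genes, which included *Scgb3a1*, *Hspb1* and *Ly6c1*. Cluster 7 (22 and 19 nuclei) had high capillary markers, but haemoglobin genes led it and it stays unnamed. The segments were held by similar numbers of nuclei in both libraries. The capillary-like cluster 6 and cluster 7 also carried mural markers, which summed to 24.8 per 10000 UMIs in PS19 and 27.4 in PZKO in cluster 6 and to 18.8 and 13.1 in cluster 7, against 1.77 and 1.17 in cluster 1. In cluster 6 most of them were *Rgs5* (411 and 707 UMIs), and *Abcc9*, *Atp13a5*, *Notch3* and *Pdgfrb*, by which mural nuclei had been left out, had 23 and 92 UMIs together.

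The remaining clusters carried markers of other cell types and hold 71 PS19 nuclei (22.3%) and 82 PZKO nuclei (24.6%), but 37.0% and 43.7% of the endothelial UMIs. Cluster 4 (42 and 32 nuclei) was led by choroid plexus, fibroblast and mural genes, cluster 5 (22 and 36) by neuronal genes at a median of 12066.5 UMIs, and cluster 8 (7 and 14) by astrocyte genes. Several of these signals differed between the libraries. The 8 choroid plexus markers summed to 38.6 per 10000 endothelial UMIs in PS19 and 8.0 in PZKO, with *Trpm3* the most abundant (2850 and 1046 UMIs). The mural markers summed to 6.35 and 12.2 per 10000, led by *Rgs5* (617 and 1227 UMIs), and the haemoglobin genes to 0.928 and 4.6 per 10000, led by *Hbb-bs* (55 and 381 UMIs). Excitatory neuron markers stood at 22.8 and 26 per 10000, against 63.6 and 68.3 in the other nuclei, and microglial markers at 2.85 and 1.75.

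**Figure D1:**
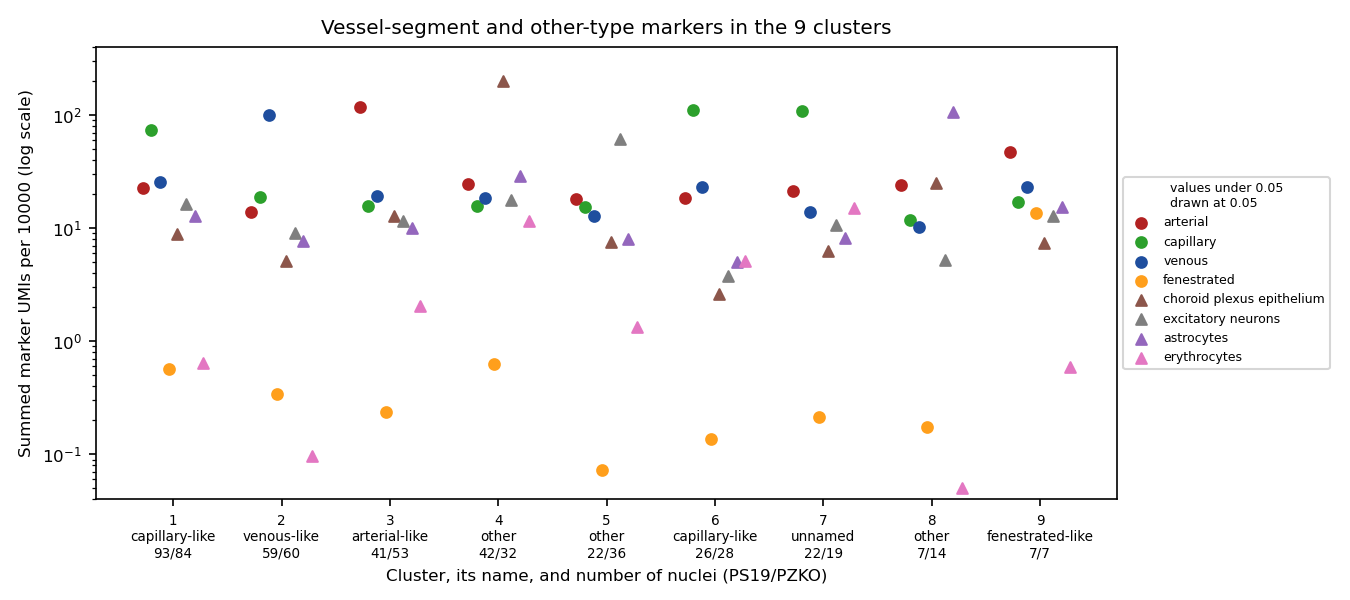
Summed marker UMIs per 10000 UMIs (log scale) in the 9 clusters of endothelial nuclei, both libraries together. Circles are lists of vessel segment markers, triangles are markers of other cell types, and the numbers under each cluster are its PS19 and PZKO nuclei. Capillary markers lead in clusters 1, 6 and 7, venous in cluster 2 and arterial in cluster 3, while choroid plexus, excitatory neuron and astrocyte markers lead in clusters 4, 5 and 8.

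Over all 652 endothelial nuclei, 118 of 8830 genes with at least 50 UMIs (1.34%) were at least 2-fold lower in the PZKO library and 149 (1.69%) at least 2-fold higher. Several of the genes at both ends lay mostly in the clusters led by other cell types. *Htr2c*, a serotonin receptor of the choroid plexus, had 574 UMIs in PS19 and 98 in PZKO, and 548 of the PS19 UMIs lay in cluster 4. *Otx2os1* (119 and 0 UMIs, 110 of the 119 in cluster 4), *Clic6* (51 and 1), *Lrriq1* (85 and 3), *Prlr* (51 and 3), *Vat1l* (66 and 5), *Dnah9* (53 and 7), *Spag16* (80 and 14) and *Fras1* (107 and 20) were other low genes. On the high side *Unc5d*, an axon guidance receptor, had 63 UMIs in PS19 and 551 in PZKO, 534 of them in cluster 5, and the potassium channel gene *Kcnq5* had 157 and 858, 802 of them in cluster 5. *Myo16* (3 and 80 UMIs), *Il1rapl2* (7 and 125), *Prr16* (12 and 156), *Trhde* (13 and 156), *Pcdh15* (87 and 501) and *Dcc* (58 and 351) were other high genes. The log2 ratio of *Unc5d* turned to -0.42 when the nuclei with the highest doublet scores were left out, and those of *Myo16* and *Pcdh15* to -0.014 and -0.21 when the profile of the other nuclei was subtracted. *Acta2*, the actin of smooth muscle, had 9 and 107 UMIs, and 101 of the 107 came from 1 nucleus.

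Transthyretin gene *Ttr*, an abundant secreted product of the choroid plexus, differed in another way. It had 1103 UMIs in 299 of 319 PS19 nuclei and 176 UMIs in 117 of 333 PZKO nuclei. The level was 1161 CPM in PS19 and 129 CPM in PZKO in arterial-like nuclei, 897 and 132 CPM in capillary-like nuclei, and 715 and 95.7 CPM in venous-like nuclei. Fenestrated-like nuclei had 18 and 4 *Ttr* UMIs, a log2 ratio of -1.54 with an interval from -3.56 to 0.06. In the other nuclei of the hippocampus the log2 ratio was -2.79, close to the -3.13 of endothelial nuclei, so the difference was also present outside the endothelium. The part of free RNA in it was not tested.

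Because of these signals, the comparison was repeated on the 248 PS19 and 251 PZKO nuclei outside clusters 4, 5 and 8, which held 759894 and 949096 UMIs. Clusters 6 and 7 stayed in it, and its mural markers summed to 8.91 per 10000 UMIs in PS19 and 11.1 in PZKO. This set was defined after the clusters had been seen. In it 55 of 6212 genes (0.885%) were at least 2-fold lower in the PZKO library and 47 (0.757%) at least 2-fold higher. Most endothelial genes stood at much the same level in both libraries. Endothelial genes here were the 915 at least 4 times as high as in other nuclei by the mean CPM of both libraries over all endothelial nuclei. A gene high in 1 library could thus pass through that library alone, and haemoglobin genes are among the 915. Of the 915, 86.9% had log2 ratios within 0.5 of 0. The median was 0.07, against -0.26 for the same genes in the other nuclei. Only 6 of them (0.656%) were at least 2-fold lower and 10 (1.09%) at least 2-fold higher. All values from here on are for this set unless stated otherwise.

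**Figure D2:**
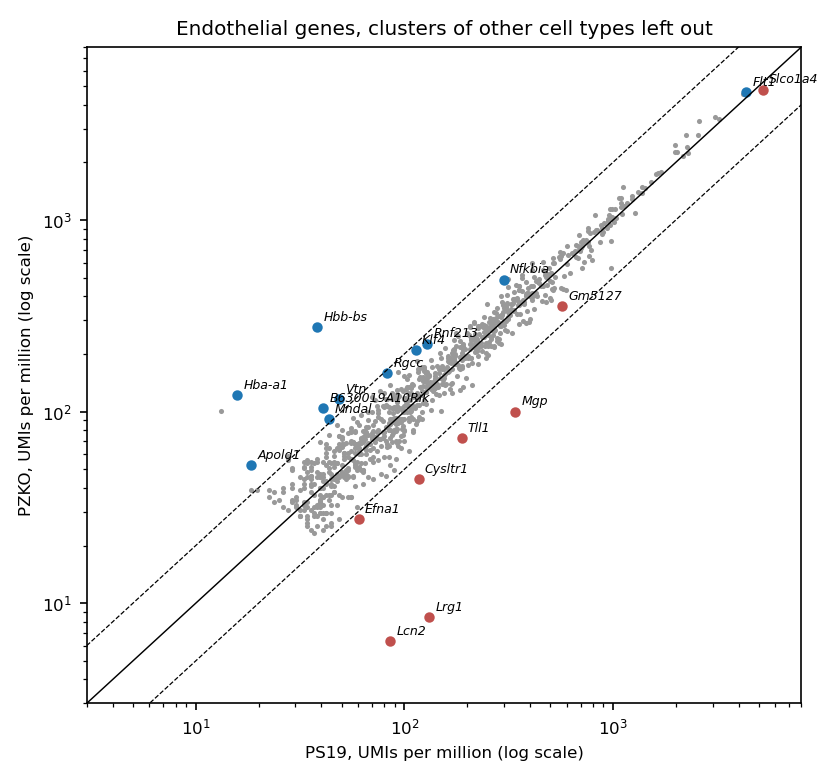
Level of 915 endothelial genes in the PS19 library (horizontal) and the PZKO library (vertical), in CPM on log scales, without the clusters of other cell types. The solid line marks equality and the dashed lines a 2-fold difference. Most genes lie along the solid line, and *Lrg1* and *Lcn2* lie farthest below it.

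The 6 low genes were *Lrg1*, *Lcn2*, *Mgp*, *Cysltr1*, *Tll1* and *Efna1*. *Lrg1* (mm10 chr17:56119678-56122001, minus strand), a secreted glycoprotein that modulates transforming growth factor beta (TGF-beta) signalling in endothelium, had 100 UMIs in PS19 (132 CPM) and 8 in PZKO (8.43 CPM), which put the log2 ratio at -3.96 (interval -5.22 to -2.93). *Lcn2* (mm10 chr2:32384633-32388252, minus strand), a secreted iron-siderophore binding protein of the acute phase, had 65 and 6 UMIs (85.5 and 6.32 CPM), for a log2 ratio of -3.76 (interval -5.26 to -2.56). By summed UMIs both were thus more than 10 times as high in the PS19 library. As a mean over all endothelial nuclei the log2 ratios were -2.92 for *Lrg1* and -3.35 for *Lcn2*. In the other nuclei the log2 ratios were -0.64 for *Lrg1* and -1.80 for *Lcn2*.

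Most UMIs of both genes lay in venous-like nuclei. They are on the venous list that named the cluster, and both were kept out of the clustering itself. *Lrg1* had 80 UMIs in venous-like PS19 nuclei (414 CPM) and 8 in venous-like PZKO nuclei (36.5 CPM), with the log2 ratio at -3.51 (interval -4.77 to -2.46), and no UMI in arterial-like nuclei of either library. A UMI was found in 16 of 59 PS19 nuclei (27.1%) and 7 of 60 PZKO nuclei (11.7%) of this cluster. Depth was similar, with medians of 2804 and 3059.5 UMIs. Thinned to 1000 UMIs per nucleus, the counts were 7 of 59 and 3 of 59 nuclei, a difference not detectable at this depth. Oligodendrocytes, which should lack the gene, had a *Lrg1* UMI in 1 of 2594 PS19 nuclei and in 0 of 2315 PZKO nuclei, which allows a share of up to 0.130% (3 counts). Much of the signal came from a few nuclei: over all endothelial nuclei the 3 richest held 63 of the 104 PS19 UMIs, and without the 3 richest of each library 41 and 5 remained.

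*Lcn2* behaved alike in venous-like nuclei, with 55 UMIs in PS19 (285 CPM) and 5 in PZKO (22.8 CPM), in 16 of 59 and 5 of 60 nuclei. The log2 ratio was -3.64 (interval -5.32 to -2.34), and after thinning 9 of 59 and 2 of 59 nuclei had a UMI, with overlapping intervals (7.22% to 27.0% and 0.413% to 11.7%), so this difference was not detectable at this depth either. In oligodendrocytes 1.23% of PS19 nuclei and 0.432% of PZKO nuclei had an *Lcn2* UMI, against 8.46% and 2.40% of endothelial nuclei. Thinned to 1000 UMIs, 6 of 2580 and 1 of 2313 oligodendrocytes had one, with overlapping intervals (0.085% to 0.505% and 0.0011% to 0.241%). Without the 3 richest nuclei of each library, 44 and 5 UMIs remained of 77 and 8. Only 7 PS19 nuclei and 1 PZKO nucleus held UMIs of both genes.

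The neighbours of these genes in the venous programme were nearer to equality. *Il1r1*, the receptor of interleukin 1, had 438 UMIs in venous-like PS19 nuclei (2269 CPM) and 514 in PZKO (2342 CPM), with the log2 ratio at 0.05 (interval -0.14 to 0.23), but 155 and 62 UMIs in capillary-like nuclei (414 and 126 CPM, log2 ratio -1.72, interval -2.16 to -1.28). The adhesion molecule gene *Vcam1* had 98 and 109 UMIs in venous-like nuclei, at 508 and 497 CPM. *Cysltr1*, a receptor for cysteinyl leukotrienes, had 82 of its 89 PS19 UMIs and 36 of its 42 PZKO UMIs in venous-like nuclei (425 CPM in PS19 and 164 CPM in PZKO), with the log2 ratio at -1.37 (interval -1.98 to -0.79). It overlaps the long transcript *Gm5127* on the opposite strand of chromosome X, and how the counting treated strand is not given in the sources used here. *Tll1*, a metalloprotease gene, had 140 and 69 UMIs there, but 77 of the PS19 UMIs came from 1 nucleus, and over all endothelial nuclei a UMI was seen in 24 of PS19 and 27 of PZKO.

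*Mgp*, an arterial matrix protein gene that inhibits calcification, had 105 UMIs in arterial-like PS19 nuclei (1051 CPM) and 73 in PZKO (470 CPM), with the log2 ratio at -1.16 (interval -1.61 to -0.72). Its 86 PS19 UMIs in capillary-like nuclei included 78 from 1 nucleus. In venous-like nuclei it had 66 and 6 UMIs (342 and 27.3 CPM), with the log2 ratio at -3.64 (interval -5.14 to -2.45), but 35 of the 66 came from 1 nucleus, and without the 3 richest nuclei of each library 7 and 3 remained. *Efna1*, an ephrin ligand gene, had 46 and 26 UMIs, a log2 ratio of -1.14. *Clu*, the gene of the secreted chaperone clusterin and also an arterial marker, stood at 1131 CPM in PS19 and 547 CPM in PZKO in arterial-like nuclei, and its log2 ratio was -1.12 in the other nuclei.

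**Figure D3:**
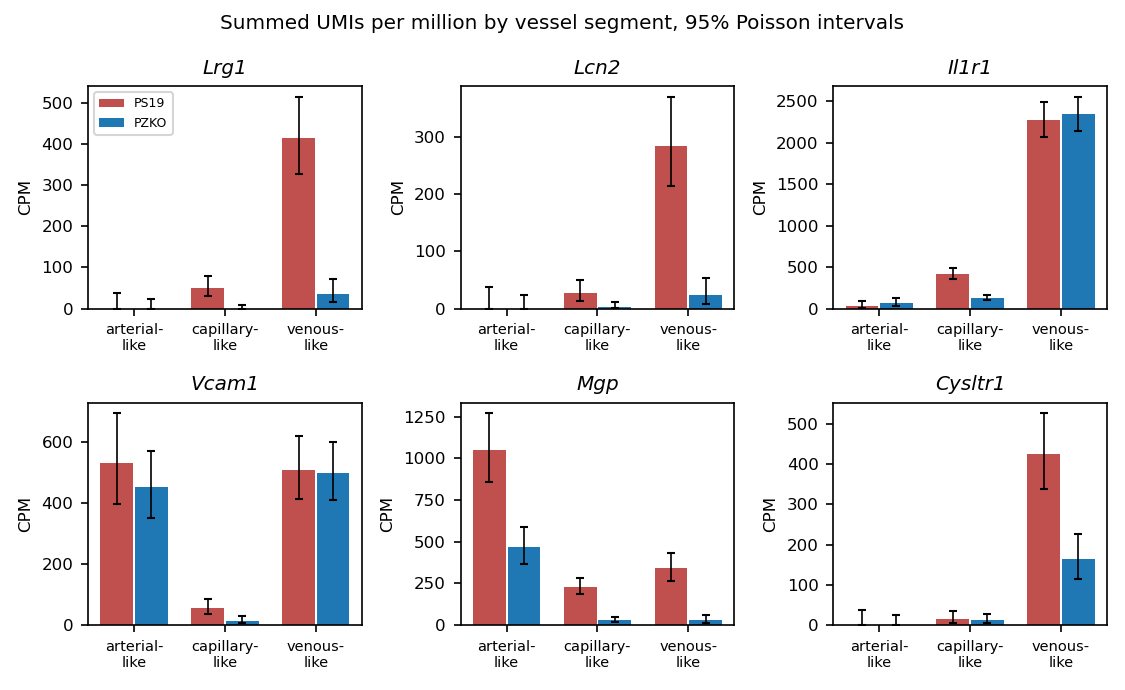
Level of 6 genes in arterial-like, capillary-like and venous-like nuclei of the PS19 (red) and PZKO (blue) libraries, in CPM on axes that start at 0. Bars are summed UMIs of 1 library and error bars 95% Poisson intervals, which cover counting error only. *Lrg1*, *Lcn2* and *Cysltr1* are high in venous-like PS19 nuclei, *Il1r1* and *Vcam1* are alike in venous-like nuclei of both libraries, and *Mgp* is highest in arterial-like PS19 nuclei.

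Of the 10 high genes, 3 encode haemoglobin. *Hbb-bs* had 29 UMIs in PS19 and 263 in PZKO, and over all endothelial nuclei its 381 PZKO UMIs came from 10 nuclei, with 135 in 1 of them. *Hba-a1* and *Hba-a2*, near-identical copies between which reads can be split, had 12 and 10 UMIs in PS19 and 116 and 96 in PZKO. The *Hbb-bs* log2 ratio was 1.86 in the other nuclei, and the part of red blood cell RNA in these values was not tested. The others were *Apold1*, an early response gene of endothelium (14 and 50 UMIs, log2 ratio 1.52), *B630019A10Rik* (31 and 99, log2 ratio 1.35), the vitronectin gene *Vtn* (37 and 110, log2 ratio 1.25), *Gm9946* (21 and 56, log2 ratio 1.09), *Trip10* (14 and 37, log2 ratio 1.08), the interferon-inducible *Mndal* (33 and 87, log2 ratio 1.08) and *Rsad2* (21 and 53, log2 ratio 1.01). *Vtn* is also a mural gene. In the set without clusters 4, 5 and 8, 99 of its 110 PZKO UMIs and 15 of its 37 PS19 UMIs lay in cluster 6, whose mural signal is given above. Of the 110, 61 came from 1 capillary-like nucleus. Without the 3 richest nuclei of each library, 14 PS19 and 24 PZKO UMIs remained in capillary-like nuclei. Outside cluster 6 the PS19 and PZKO counts were 5 and 5 in cluster 1, 8 and 2 in venous-like nuclei, 2 and 0 in arterial-like nuclei and 7 and 4 in cluster 7.

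Other endothelial genes differed by less than 2-fold. *Klf4*, a transcription factor gene that responds to blood flow, had 86 UMIs in PS19 (113 CPM) and 198 in PZKO (209 CPM), with the log2 ratio at 0.88 (interval 0.51 to 1.26). *Nfkbia*, the gene of an inhibitor of NF-kappaB that is itself induced by NF-kappaB, had 227 and 463 UMIs (299 and 488 CPM), with the log2 ratio at 0.71 (interval 0.48 to 0.94), while in the other nuclei its ratio was -0.61. *Rgcc*, a capillary gene and regulator of the cell cycle, had 63 and 151 UMIs (82.9 and 159 CPM, log2 ratio 0.94), and *Clic4*, a chloride channel gene, had 239 and 468 UMIs (log2 ratio 0.65). The chemokine gene *Cxcl12*, a capillary marker, stood at 1119 and 1494 CPM (log2 ratio 0.42, interval 0.29 to 0.54).

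The values of these genes differed between the 2 capillary-like clusters. Cluster 6 held 48.7% of capillary-like UMIs in PS19 and 67.0% in PZKO, and it expressed *Klf4* and *Nfkbia* more than cluster 1 did. Within cluster 6 *Klf4* had 46 and 138 UMIs (log2 ratio 0.73) and *Nfkbia* 123 and 336 UMIs (log2 ratio 0.60). Within cluster 1 *Klf4* had 6 and 14 UMIs (log2 ratio 1.47) and *Nfkbia* 25 and 26 UMIs (log2 ratio 0.30). Both ratios within cluster 6 were smaller than the 1.15 and 0.90 over all capillary-like nuclei. *Rgcc* had log2 ratios of 1.73 within cluster 1 (10 and 28 UMIs) and 0.73 within cluster 6 (34 and 102 UMIs), and *Il1r1* of -1.26 (108 and 38 UMIs) and -1.82 (47 and 24 UMIs). The part of the mural signal of cluster 6 in the values of *Vtn*, *Klf4*, *Nfkbia* and *Rgcc* was not tested.

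Junction genes stood near equality over the whole set. Of 13 tight and adherens junction genes with enough UMIs, 9 had a ratio above 0, against 51% of all genes, and 4 below 0. None reached 2-fold, which over all genes 0.885% did on the low and 0.757% on the high side, and 0 of 13 lies near these shares. The median log2 ratio was 0.06, against 0.01 over all 6212 genes. The scaffold gene *Tjp1* stood at 2116 CPM in PS19 and 2150 CPM in PZKO (log2 ratio 0.02, interval -0.07 to 0.12), and *Ocln*, the occludin gene, at 268 and 264 CPM. *Lsr*, a protein of tricellular junctions, was the highest (157 and 216 CPM, log2 ratio 0.46, interval 0.13 to 0.80). *Jam3*, a junctional adhesion molecule, was under the minimum of 50 UMIs in this set, with 25 and 7 UMIs (log2 ratio -2.16, interval -3.61 to -0.91).

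Transporters were likewise near equality over the whole set. Among the 26 solute carriers 16 had ratios above 0, against 51% of all genes, and the median log2 ratio was 0.09. *Slco1c1*, a thyroid hormone transporter gene, stood at 1608 CPM in PS19 and 1737 CPM in PZKO, *Slc2a1*, the glucose transporter gene, at 1019 and 1139 CPM, and *Slc6a6*, the taurine transporter gene, at 1069 and 1310 CPM (log2 ratio 0.29, interval 0.16 to 0.42). *Mfsd2a*, a lipid transporter that keeps vesicle transport low, stood at 141 and 149 CPM. The 1 solute carrier of 26 past 2-fold, which 0.885% of all genes were on the low side, was *Slc4a10*, a bicarbonate transporter of neurons and choroid plexus, with 49 and 23 UMIs. Of the efflux pumps, *Abcg2* stood at 1371 and 1384 CPM and *Abcb1a* at 1237 and 1342 CPM, and the median of 5 pumps was 0.01. The 14 genes of receptor-mediated transport and caveolae had a median log2 ratio of 0.00, with the transferrin receptor gene *Tfrc* at 500 and 392 CPM (log2 ratio -0.35, interval -0.56 to -0.14) and *Cavin2*, a caveolar coat gene, at 178 and 256 CPM (log2 ratio 0.53, interval 0.22 to 0.84).

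By segment the barrier lists differed more. The solute carriers summed to 4653 CPM in PS19 and 6020 CPM in PZKO in arterial-like nuclei (log2 ratio 0.37, interval 0.21 to 0.53) and to 5507 and 6821 CPM in venous-like nuclei (log2 ratio 0.31, interval 0.19 to 0.42), but to 11532 and 11965 CPM in capillary-like nuclei (log2 ratio 0.05, interval -0.0037 to 0.11). With at least 20 UMIs, 8 of 12 of them were above 0 in arterial-like nuclei, 15 of 21 in venous-like and 12 of 26 in capillary-like nuclei, against 54.1%, 50.2% and 51.1% of all genes. The efflux pumps had summed log2 ratios of 0.37 (interval 0.14 to 0.59) in arterial-like nuclei, with 4 of 4 above 0, 0.11 (interval -0.03 to 0.26) in venous-like and -0.09 (interval -0.19 to 0.00) in capillary-like nuclei. Those of the junction genes were 0.15 (interval -0.01 to 0.31), 0.19 (interval 0.08 to 0.31) and -0.02 (interval -0.10 to 0.06), with 10 of 12, 11 of 12 and 6 of 13 above 0. The capillary markers were also higher in the PZKO library in arterial-like nuclei (log2 ratio 1.12, interval 0.78 to 1.48) and in venous-like nuclei (1430 and 2310 CPM, log2 ratio 0.69, interval 0.48 to 0.91), where the arterial markers were lower (log2 ratio -0.35, interval -0.59 to -0.10). The part of these differences in the values of the barrier lists was not tested.

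The median log2 ratio was 0.01 over 22 genes of Wnt and beta-catenin signalling at the barrier, -0.01 over 17 genes of VEGF, angiopoietin and apelin signalling, 0.18 over 8 Notch genes and 0.08 over 21 genes of TGF-beta and bone morphogenetic protein (BMP) signalling. Summed Notch genes went both ways by cluster. Their log2 ratio was -0.53 (interval -0.83 to -0.23) in arterial-like nuclei and -0.32 (interval -0.73 to 0.08) in cluster 1. It was 0.44 (interval 0.03 to 0.85) in venous-like nuclei and 0.52 (interval 0.22 to 0.82) in cluster 6. *Lef1*, a nuclear effector of Wnt signalling, stood at 1642 CPM in PS19 and 1766 CPM in PZKO. *Jag2*, a Notch ligand gene, had 58 and 122 UMIs (log2 ratio 0.75, interval 0.29 to 1.23), and *Bmp6*, a ligand gene that venous endothelium expresses, had 46 and 21 UMIs (log2 ratio -1.45, interval -2.27 to -0.68). Over all endothelial nuclei the *Bmp6* ratio was -1.33, but 0.011 when nuclei were admitted from 10 per 10000. Of 22 basement membrane and integrin genes 16 were above 0, against 51% of all genes, with a median of 0.17: the laminin receptor subunit gene *Itga6* stood at 408 and 599.5 CPM (log2 ratio 0.56, interval 0.35 to 0.76) and the collagen gene *Col4a1* at 209 and 294 CPM (log2 ratio 0.49, interval 0.20 to 0.78). The 31 endothelial identity genes had a median of 0.02, and none reached 2-fold, near the shares of all genes given above. Of the segment markers, 11 capillary genes had a median of 0.10, 13 arterial genes of -0.14 and 11 venous genes of -0.21.

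**Figure D4:**
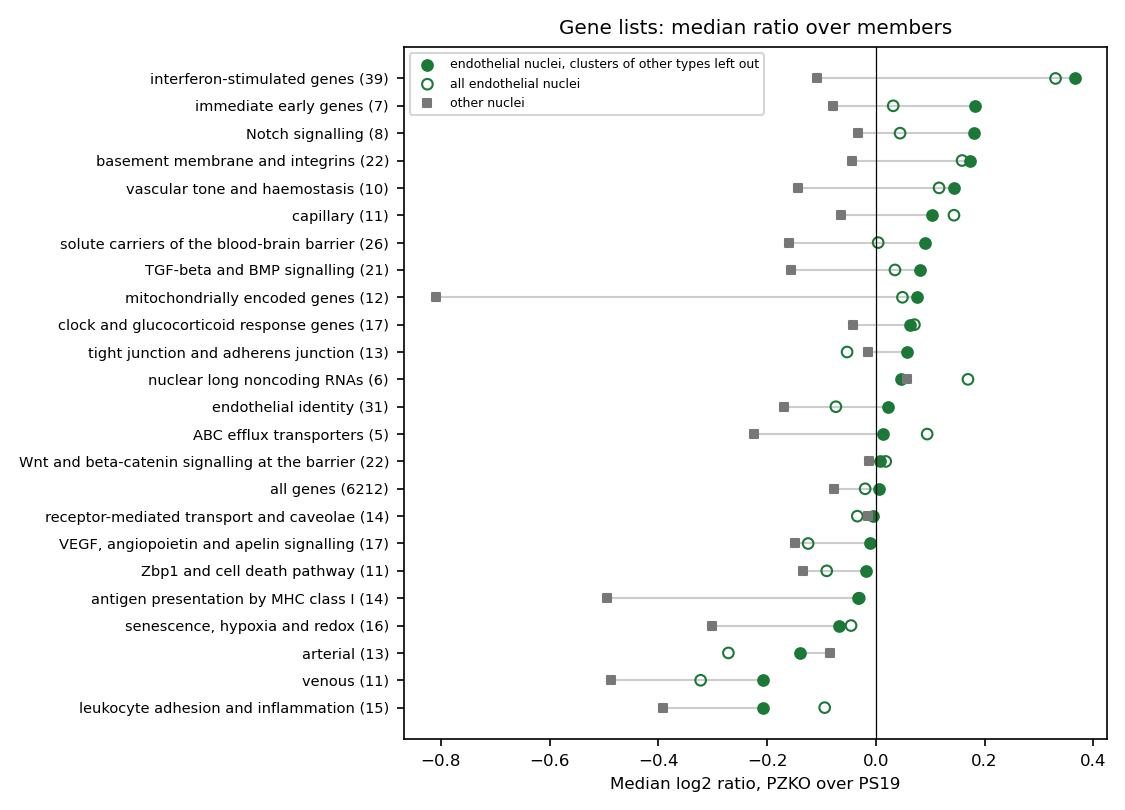
Median log2 ratio of PZKO over PS19 for each gene list, with the number of its genes in parentheses. Filled circles are endothelial nuclei without the clusters of other cell types, open circles all endothelial nuclei and squares the other nuclei. Interferon-stimulated genes stand farthest to the right at 0.37, while most barrier lists lie near 0.

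Interferon-stimulated genes had the highest median ratio of the lists. The list of 47 genes also holds the interferon receptor genes *Ifnar1*, *Ifnar2*, *Ifngr1* and *Ifngr2*, whose UMIs are part of its sums. Over all endothelial nuclei 36 of 43 had a ratio above 0, against 47.1% of all genes tested, and 1, *Cxcl10*, was at least 2-fold higher, near the 1.69% of all genes. Without the clusters of other types 33 of 39 were above 0, against 51% of all genes, with a median log2 ratio of 0.37. The median over all endothelial nuclei was 0.33, but 0.10 when nuclei were admitted from 10 per 10000, 0.15 as a mean over nuclei and 0.042 when the profile of the other nuclei was subtracted. The list summed to 4537 UMIs in PS19 (5971 CPM) and 6662 in PZKO (7019 CPM), with the log2 ratio at 0.23 (interval 0.18 to 0.29). In the other nuclei 16 of the 43 were above 0, against 34.3% of the same tested genes, and the summed log2 ratio was -0.12. The most abundant members differed little: *Ly6a* stood at 1091 CPM in PS19 and 1165 CPM in PZKO, and *Ifitm3*, an antiviral membrane protein gene, at 411 and 415 CPM. Among less abundant members *Rnf213*, a ubiquitin ligase gene, had 98 and 215 UMIs (129 and 227 CPM, log2 ratio 0.81, interval 0.46 to 1.17). *Bst2*, the tetherin gene, lay on the low side with 61 and 55 UMIs (log2 ratio -0.47, interval -1.02 to 0.08).

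Many genes induced by interferons carry the interferon-stimulated response element near their start. A simple form of this element, GAAA and again GAAA with any 2 bases between them, read on either strand, was searched for in the 250 bases before the start of each gene, in promoter sequences from RefSeq on GRCm38.p6. It occurred in 978 of 32851 promoters (2.98%), and in 14 of the 35 interferon-stimulated genes that had a promoter sequence (40% of genes, against 3.46% of the 27025 genes with one). The promoters of *Isg15* (chr4:156200819-156201068, minus strand), a ubiquitin-like modifier, *Ifit1* (chr19:34640639-34640888, plus strand), a sensor of foreign RNA caps, and *Rsad2* (chr12:26456453-26456702, minus strand), an antiviral radical enzyme, are shown because all of the 3 genes were higher in the PZKO library and because their matches differ in number and strand. They were chosen after their values had been seen. Each is written 5′ to 3′ toward the gene, with the matches in capitals:
Isg15: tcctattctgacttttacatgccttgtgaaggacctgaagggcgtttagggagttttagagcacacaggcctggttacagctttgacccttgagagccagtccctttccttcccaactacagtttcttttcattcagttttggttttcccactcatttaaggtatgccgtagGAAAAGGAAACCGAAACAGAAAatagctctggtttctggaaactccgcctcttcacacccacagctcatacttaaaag
Ifit1: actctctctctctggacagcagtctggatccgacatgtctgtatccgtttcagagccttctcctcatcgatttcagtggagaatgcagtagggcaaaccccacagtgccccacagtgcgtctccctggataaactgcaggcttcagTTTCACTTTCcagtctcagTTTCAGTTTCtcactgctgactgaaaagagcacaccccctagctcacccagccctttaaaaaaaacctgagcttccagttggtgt
Rsad2: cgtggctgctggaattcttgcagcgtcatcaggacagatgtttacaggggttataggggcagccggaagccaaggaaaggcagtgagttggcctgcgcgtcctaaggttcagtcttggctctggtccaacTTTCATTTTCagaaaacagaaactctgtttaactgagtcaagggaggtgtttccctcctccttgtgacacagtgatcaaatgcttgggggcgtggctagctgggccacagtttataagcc
The *Isg15* promoter holds 3 overlapping matches on the gene's own strand, which begin 78 to 66 bases before the start. *Ifit1* holds 2 matches and *Rsad2* 1 match, all on the opposite strand. A match is a run of letters and shows no binding. A simple kappaB motif was searched for in the same way: GGG, a purine, any 2 bases, 2 pyrimidines and CC. It occurred in 7.25% of all promoters, and the GAAA form in 2.98%. The promoters of *Lrg1* and *Lcn2* held no match to either. Most promoters lack both, so this shows nothing about how the 2 genes are controlled.

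The UMIs of *Isg15* lay mostly in a single group of capillary nuclei. The gene had 76 UMIs in PS19 and 146 in PZKO (log2 ratio 0.62, interval 0.21 to 1.04), and 60 of the 76 and 129 of the 146 lay in cluster 6. Within cluster 6 its ratio was 0.25, with an interval from -0.20 to 0.72. *Ifit1* had 43 and 88 UMIs (56.6 and 92.7 CPM, log2 ratio 0.71, interval 0.17 to 1.27), whereas *Rsad2* was sparser at 21 and 53 UMIs (27.6 and 55.8 CPM, log2 ratio 1.01, interval 0.26 to 1.82). *Cxcl10*, a chemokine gene, had 3 and 39 UMIs, and 34 of the 39 came from 3 venous-like nuclei. Its ratio over all endothelial nuclei was 1.38, but -0.10 when nuclei were admitted from 10 rather than 15 per 10000. *Isg15* averaged over nuclei, each with the same weight, had a log2 ratio of -0.21 over all endothelial nuclei, against 0.68 by summed UMIs.

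Taken by cluster, the difference in the summed list varied. In cluster 6 the list stood at 11024.5 CPM in PS19 and 10839 CPM in PZKO (log2 ratio -0.02, interval -0.10 to 0.06), the highest of all clusters. The part of its mural signal in these values was not tested. In cluster 1 it stood at 4037 and 4563 CPM (log2 ratio 0.18, interval 0.03 to 0.32), in cluster 7 at 6074 and 6166 CPM and in venous-like nuclei at 4455 and 4415 CPM (log2 ratio -0.01, interval -0.15 to 0.12). Yet 17 of the 27 members with at least 20 UMIs in venous-like nuclei were above 0, with a median log2 ratio of 0.30, against 50.2% and 0.01 over all genes, so the sum and the median of the list differed in sign there. In cluster 6, 19 of 38 such members were above 0 (median -0.03), in cluster 1 15 of 26 (median 0.24) and in cluster 7 4 of 10 (median -0.24). The shares of all genes there were 52.1%, 49.9% and 50.3%. Cluster 6 held 24.0% of the UMIs of the set in PS19 and 34.7% in PZKO. Without cluster 6, 23 of 31 members were above 0, against 49.6% of 4756 genes, and the summed log2 ratio was 0.19 (interval 0.11 to 0.27).

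Among these clusters the difference was greatest in arterial-like nuclei, where the list stood at 3793 CPM in PS19 (379 UMIs) and 5865 CPM in PZKO (911 UMIs), a log2 ratio of 0.63 (interval 0.45 to 0.81), and 23 of 26 members with at least 20 UMIs were above 0, against 54.1% of 2867 genes with a median of 0.064. The nuclear body gene *Sp100* had 26 and 84 UMIs (log2 ratio 1.06), the RNA sensor gene *Ifih1* 8 and 41 (log2 ratio 1.72), the ubiquitin ligase genes *Trim25* 6 and 31 (log2 ratio 1.73) and *Trim30a* 5 and 28 (log2 ratio 1.85), *Stat2* 11 and 39 (log2 ratio 1.19), and *Oasl2* 17 and 48 (log2 ratio 0.86). *Ly6a* had 41 and 39 UMIs there (log2 ratio -0.71). The same arterial-like nuclei differed in their segment markers: arterial markers stood at 14221 CPM in PS19 and 10236 CPM in PZKO (log2 ratio -0.47, interval -0.58 to -0.37), and capillary markers at 911 and 1983 CPM (log2 ratio 1.12, interval 0.78 to 1.48). The part of this difference in the makeup of the cluster in the values of the interferon list was not tested.

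**Figure D5:**
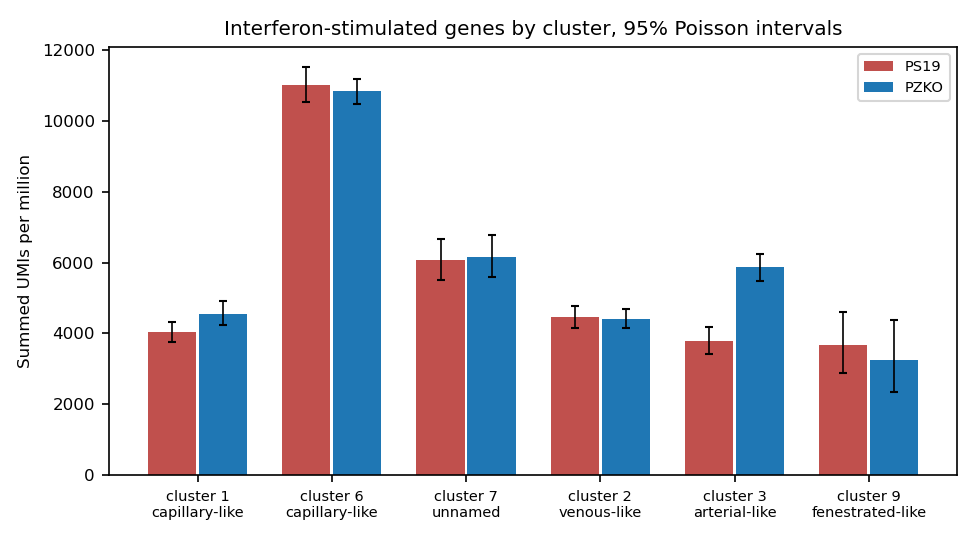
Summed level of the interferon-stimulated genes in each cluster of endothelial nuclei without those of other cell types, in CPM, in the PS19 (red) and PZKO (blue) libraries. Error bars are 95% Poisson intervals and cover counting error only. Cluster 6 is highest at 11024.5 and 10839, and arterial-like nuclei show the widest gap at 3793 and 5865.

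Of 14 genes of antigen presentation by major histocompatibility complex (MHC) class I, 6 had a ratio above 0 and 8 below, near the 51% and 49% of all genes, with a median log2 ratio of -0.03. By cluster the summed list had log2 ratios of -0.35 (interval -0.62 to -0.08) in cluster 1, -0.28 (interval -0.50 to -0.07) in venous-like nuclei and -0.93 (interval -1.30 to -0.57) in cluster 7. The ratio was -0.13 (interval -0.27 to 0.004) in cluster 6 and -0.0033 (interval -0.29 to 0.29) in arterial-like nuclei. Cluster 6, where the list stood highest (3801 and 3463 CPM), held 24.0% of the UMIs of the set in PS19 and 34.7% in PZKO. The part of this share in the pooled median was not tested. *B2m*, the invariant chain gene, stood at 520 CPM in PS19 and 441.5 CPM in PZKO (log2 ratio -0.24, interval -0.44 to -0.03), *H2-K1* at 336 and 334 CPM and *H2-D1* at 408 and 381 CPM. *Psmb10*, a subunit of the immunoproteasome, was the highest member with 22 and 48 UMIs. In the other nuclei the log2 ratio of *B2m* was -1.0 and the median of the list -0.50. H2 genes are near-copies of each other, so single members are uncertain.

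Leukocyte adhesion and inflammation genes had a median log2 ratio of -0.21 over 15 genes, with 8 of them below 0, near the 49% of all genes. *Lrg1* and *Lcn2* were the 2 past 2-fold, both lower in the PZKO library, where 0.885% of all genes were. Genes of vascular tone and haemostasis had a median of 0.14 over 10 genes. *Nos3*, the endothelial nitric oxide synthase gene, stood at 296 and 295 CPM, *Klf2*, a partner of *Klf4* in the response to flow, at 334 and 419 CPM (log2 ratio 0.33, interval 0.10 to 0.56), and *Vwf* at 711 and 562 CPM (log2 ratio -0.34, interval -0.51 to -0.16). The 11 genes of the *Zbp1* and cell death pathway had a median of -0.02, with *Ripk1* at 52 and 50 UMIs and the survival gene *Bcl2l1* at 229 and 390 UMIs (log2 ratio 0.45, interval 0.21 to 0.69). The medians were 0.06 over 17 clock and glucocorticoid response genes, 0.18 over 7 immediate early genes and -0.07 over 16 genes of senescence, hypoxia and redox. By cluster the last list summed lower in PZKO, with log2 ratios of -0.39 in cluster 1, -0.40 in venous-like nuclei, -0.41 in arterial-like nuclei and -0.57 in cluster 7. These intervals were clear of 0. In cluster 6, where this list stood highest (3631 and 3387 CPM), the ratio was -0.10 (interval -0.24 to 0.04). The part of the larger PZKO share of cluster 6 in the pooled median was not tested. *Cdkn1a*, an inhibitor of the cell cycle, had 36 and 81 UMIs (log2 ratio 0.85, interval 0.27 to 1.46).

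Mitochondrially encoded transcripts were near equality over the whole set of endothelial nuclei, whereas in the other nuclei they were lower in the PZKO library. The 12 genes had a median log2 ratio of 0.08 in endothelial nuclei and -0.81 in the other nuclei. By cluster their sums went both ways, with log2 ratios of 0.17 (interval 0.12 to 0.22) in capillary-like and 0.15 (interval 0.04 to 0.26) in venous-like nuclei. The ratio was -0.11 (interval -0.23 to 0.01) in arterial-like nuclei and -0.38 (interval -0.50 to -0.27) in cluster 7, where all 12 genes were below 0. The median mitochondrial share of an endothelial nucleus was 0.958% in PS19 and 0.960% in PZKO, while over all passing nuclei it was 0.506% and 0.341%. *mt-Co1*, a subunit of cytochrome oxidase, stood at 2454 CPM in PS19 and 2651 CPM in PZKO. Among 6 nuclear long noncoding RNAs with a median of 0.05, *Malat1* had 47864 and 53424 UMIs, with the log2 ratio at -0.16 (interval -0.18 to -0.14).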

How the data were processed

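The authors deposited 1 matrix of UMI counts per library, whole numbers per gene and nucleus, without normalization. Nuclei had been loaded for 3′ libraries of the Chromium system and counted on mm10. The methods and the submitters' processing notes name Cell Ranger 7.0.1, whereas the header of both matrices names 8.0.1. The correction with SoupX and the removal of doublets with DoubletFinder described in the methods are not part of the deposited counts, but the thresholds for nuclei were applied here.

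Nuclei were clustered with scikit-learn 1.9.0 and leidenalg 0.10.2 (1500 variable genes, 20 principal components, 15 neighbours, resolution 1.2) in Python 3.11.15. Doublet scores (Scrublet) came from scanpy 1.11.5. *Zbp1*, mitochondrial, interferon, MHC class I and inflammation genes and endothelial genes past 2-fold did not enter the clustering. Of these, 110 genes had at least 50 UMIs in the endothelial nuclei of both libraries together. A cluster took the name of the segment list highest against the other clusters of endothelial nuclei. No fewer than 3 markers of the list had to be detected, with a sum at least 1.3 times that in the other clusters. No other list could have more members among the 10 leading genes, and shallow clusters needed a marker of the list among these 10. Clusters whose median of the rule genes was under 0.5 times that of all were set apart as other types. UMIs were summed per library and divided by all UMIs of the same nuclei. Log2 ratios of PZKO over PS19 come from these sums with exact conditional binomial intervals, and where a library had 0 UMIs, 3 were allowed for it. No test between genotypes was made, and the calculation was tested on simulated data. Genes entered the counts from 50 UMIs in both libraries together. Size factors of edgeR 4.0.16 and DESeq2 1.42.0 (R 4.3.3) served only as other scalings.

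The members, lists and comparisons were chosen with earlier results of these data known. Genes were named by rule: the rule genes, the 12 lowest and 12 highest by the interval's end nearest to 0, the 20 most selective for endothelium, and in each list the most abundant and the extreme members. A repeat of the second step took endothelial genes of the set without clusters 4, 5 and 8. *Ocln*, *Mfsd2a*, *H2-K1*, *H2-D1*, *Nos3*, *Klf2*, *Cdkn1a*, *Col4a1*, *Cavin2*, *Clu*, *Trip10*, *Gm9946* and the arterial members of the interferon list were named after their values had been seen. GENCODE M21 gave the positions of 32235 of the 32285 genes (99.8%). Promoter sequences were those of RefSeq on GRCm38.p6. Alternatives covered the thresholds, doublets (Scrublet), scaling, the gene minimum and subtraction of the profile of other nuclei. Some genes are not reported here.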

Additional observations from a re-analysis of the deposited data

Results flagged for a closer look

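Some genes and lists of the endothelial nuclei outside clusters 4, 5 and 8 had a log2 ratio of PZKO over PS19 opposite in sign to that in the other nuclei of the same libraries, with both counting intervals clear of 0. In each of these the difference was not tested. *Cxcl10* had a ratio of 3.38 in endothelial nuclei and -0.29 in the other nuclei, but it rests on 3 and 39 UMIs, under the minimum of 50, and 34 of the 39 came from 3 nuclei. *Vtn* had a ratio of 1.25 and -0.48, but 99 of its 110 PZKO UMIs lay in cluster 6 and 61 came from 1 capillary-like nucleus. In each other cluster of the set its PZKO count was equal to or lower than its PS19 count. *Mndal* had ratios of 1.08 and -0.10. *Tll1* had a ratio of -1.37 in endothelial nuclei and 0.13 in the other nuclei, but over all endothelial nuclei its ratio was -0.30 without the 3 richest of each library, against -1.44 with them. *Jam3*, also under the minimum with 25 and 7 UMIs, had ratios of -2.16 and 0.07. The summed interferon-stimulated genes had a ratio of 0.23 in endothelial nuclei and -0.12 in the other nuclei, and the summed mitochondrially encoded genes of 0.088 and -0.78. The summed venous markers had a ratio of -0.34 in endothelial nuclei and 0.41 in the other nuclei, and *Lrg1* and *Lcn2* are members of that list. Only the sums were opposite, since the median of the members was -0.21 in endothelial nuclei and -0.49 in the other nuclei. Members above 0 were 4 of 11 and 2 of 12, against 51% and 34.3% of all genes.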

How the results depend on the processing

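No paired analysis was possible because each genotype has 1 library. The share of endothelial nuclei (3.05% in PS19, 3.29% in PZKO) became 2.39% and 2.48% without nuclei rich in other types' markers, 2.21% and 2.01% with a stricter filter on nuclei, and 2.37% and 2.48% without clusters 4, 5 and 8. The number of genes at least 2-fold lower in PZKO (118) was 69 at a threshold of 30 per 10000, 55 without those clusters, 232 as a mean over nuclei, 374, 41 and 2837 at gene minimums of 20, 100 and 1 UMIs, and 279 after subtraction of the profile of other nuclei. The number at least 2-fold higher (149) was 69 without nuclei rich in other types' markers, 58 without the highest Scrublet scores, 47 without those clusters, 270 as a mean over nuclei, 345, 76 and 1974 at these minimums, and 1439 after subtraction, for which that profile was scaled to 66.9% of endothelial UMIs in PS19 and 43.8% in PZKO. Higher genes were 55.8% of those past 2-fold as reported, 74.8% at a threshold of 30, 41.1% without marker-rich nuclei, 27.2% without the highest Scrublet scores, 41.0% at a minimum of 1 UMI and 83.8% after subtraction. The 845 genes selective for endothelium were 536 with the stricter filter and 1324 at a minimum of 1 UMI. The causes were not tested.

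The median log2 ratio of solute carriers (0.00) was -0.068 at a threshold of 10, 0.18 without marker-rich nuclei, 0.16 without the highest Scrublet scores, 0.064 with the stricter filter, 0.090 without clusters 4, 5 and 8, -0.16 as a mean over nuclei and -0.29 after subtraction. The median of interferon-stimulated genes (0.33) was 0.28 at a threshold of 30, 0.10 at 10, 0.41 without marker-rich nuclei and without the highest Scrublet scores, 0.43 with the stricter filter, 0.15 as a mean over nuclei, 0.042 after subtraction and 0.52 without clusters 4, 5, 6 and 8. Ratios changed sign for *Myo16* (-0.014) and *Pcdh15* (-0.21) after subtraction, *Unc5d* (-0.42) without the highest Scrublet scores, and *Bmp6* (0.011) and *Cxcl10* (-0.10) at a threshold of 10. Of 2370 values for 160 single genes and other lists, 2003 stayed within the counting error, 362 moved beyond it and these 5, past 2-fold as reported, changed sign. A further 170 values of ratios under 2-fold changed sign, among them *Isg15* (0.68), which was -0.21 as a mean over nuclei. *Lrg1* ranged from -4.40 to -2.92 and *Lcn2* from -4.28 to -3.33. Leaving out the 3 richest nuclei of each library took *Tll1* from -1.44 to -0.30. It took *Cxcl10* from 1.38 to 0.83, a value that rests on only 2 PS19 and 5 PZKO UMIs. Leaving out clusters or the richest nuclei was chosen after seeing the data. The sparse depth of endothelial nuclei limits single genes by segment, and the pooled animals leave the spread between mice unknown.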
